A study of Rattus norvegicus with 20 samples.

Results

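The muscle microRNAs (miRNAs) miR-1 and miR-206 were followed across 20 arrays, together with miR-1*, the strand from the other arm of the miR-1 hairpin. The members were the 3 miRNAs that the array files name rno-miR-1, rno-miR-206 and rno-miR-1*, of 348 miRNAs that carried 1 name in every file. They were chosen by name, with earlier results of these data known. RNA came from soleus muscle and from the L4 to L6 dorsal root ganglia (DRGs) of male Sprague-Dawley rats, and was measured with 1 dye on Agilent arrays for rat miRNAs, 10 for each tissue. The denervation group had sciatic denervation for 6 months, the entrapment group had a non-constrictive silastic tube around the sciatic nerve for 6 months, the decompression group had the same entrapment for 6 months followed by 3 months of decompression, and the control was a sham operation. Each injury group had 3 arrays per tissue and the sham control had 1. The methods give 3 rats for every group, and neither they nor the labels say whether the sham array holds RNA of 1 rat or of a pool. Every difference from sham therefore rests on 1 array, and the spread of the sham level is unknown. The labels call the arrays replicates without naming the animals, so the p-values measure the spread between these arrays.

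miR-1 and miR-206 are abundant in striated muscle and are counted among the myomiRs, the miRNAs that muscle cells switch on as they differentiate. miR-1 is made in heart and skeletal muscle, whereas miR-206 is largely confined to skeletal muscle and is known for a role at the neuromuscular junction and in its repair after nerve injury. They share the seed, the bases by which a miRNA recognises its targets, and both are known to act on the histone deacetylase HDAC4.

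The sequences below are shown because they tell which bases both miRNAs share and which could tell them apart on an array. They were taken from RefSeq (rat assembly GRCr8), and capitals mark the seed, bases 2 to 8 from the 5′ end.
rno-miR-1-3p: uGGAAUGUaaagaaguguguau
rno-miR-206-3p: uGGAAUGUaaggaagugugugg
rno-miR-1b: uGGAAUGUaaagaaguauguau
rno-miR-1-5p: gCACAUACuucuuuauguaccc

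The seed GGAAUGU was held by 3 of the 724 rat mature miRNAs in that table, namely the first 3 shown. Counted from 1 at the 5′ end, miR-206 differs from miR-1 by A11G, A21G and U22G and has 19 of 22 bases in common with it. miR-1b, which no name on the array refers to, differs from miR-1 by G17A alone. Whether the miR-1 probes tell these miRNAs apart was not tested. The fourth sequence is the other arm of the Mir1 hairpin and has another seed. The files hold no probe sequence, so it could not be checked that the array's miR-1* is this strand. In GRCr8 the mature miR-1 lies at chr18:2160339-2160360 on the minus strand and miR-206 at chr9:30590747-30590768 on the plus strand. Each hairpin has a miR-133 gene as its neighbour, since 2368 bases separate Mir1 from Mir133a1 on chromosome 18 and 3801 bases separate Mir206 from Mir133b on chromosome 9.

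Levels are given as scaled signal, the background-subtracted intensity that the scanner software summed over a miRNA's probes, scaled to each array's 75th percentile. Before scaling, that percentile spanned a 6.20-fold range over the soleus arrays and a 1.62-fold range over the DRG arrays. Between 134 and 194 miRNAs were detected per soleus array and between 183 and 233 per DRG array. Of 45 control features, 12 in soleus and 24 in the DRGs parted the sham and denervation arrays without overlap from the entrapment and decompression arrays. Group and handling of the arrays can therefore not be told apart. By scanner values 26 of 173 tested miRNAs in soleus and 75 of 219 in the DRGs were parted in this way, and none of the 3 members was. With the processed values described next, miR-1 was parted so in soleus, at a scaled signal of 47777 or more against at most 28042.5. How many other miRNAs were parted so with those values was not counted. The part of array handling in the differences of miR-1 was not tested.

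In soleus, the deposited data hold 2 different sets of miR-1 values, and the direction of its change from sham depends on which is used. By the scanner files miR-1 was higher after each injury than on the sham array, by 8.01-fold after denervation. When the values of the authors' processed table replaced the 6 scanner values that differ from them, and the arrays were scaled in the same way, it was lower after each injury on average, by 6.65-fold after decompression. In the processed table as deposited, which was not scaled further, miR-1 stood at 1.27, -0.32 and -2.01 against sham on the log2 scale after denervation, entrapment and decompression, and none of these passed the test. miR-206 and miR-1* have the same values in both sources.

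In the scanner files, the miR-1 signal before scaling was 4895 on the sham array. It was 98538, 117065 and 113754 on denervation arrays 1 to 3. It was 33194, 52243 and 35895 on the entrapment arrays and 40370, 25802 and 47258 on the decompression arrays. All 9 injury arrays were thus brighter for miR-1 than the sham array, and the 3 denervation arrays were the brightest. Before scaling, miR-206 was lowest on the sham array as well, at 1423 against 2644 or more on the injury arrays. Unscaled signals also carry the brightness of the whole array.

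The processed table equals the scanner signal divided by 1 constant per array for 96.1% to 100% of the values compared per soleus array. Multiplied by that constant, the miR-1 values of denervation 1, denervation 2, entrapment 1 and decompression 2 equalled the scanner signal within 1%. The other 6 soleus arrays differed. On the sham array the processed value came to 48095, where the scanner file has 4895, so the scanner signal was 0.102 times the processed one. On denervation 3 it came to 52444, 2.17-fold below the scanner signal. On entrapment 2 and 3 and decompression 1 the scanner signal was 1.93-fold, 1.80-fold and 1.77-fold above the processed value, and on decompression 3 it was 4.41-fold above it. The sham array alone differed upwards. The error that the scanner software filed with each miR-1 signal was 7.36% of the signal on the sham array, 9.68% on denervation 3 and between 7.24% and 7.57% on the other 8 arrays. In the DRGs no value of a member differed by over 1% once each scanner file was set beside the column that matched it. Which miR-1 values are right, and how the difference arose, cannot be told from the files.

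**Figure D1:**
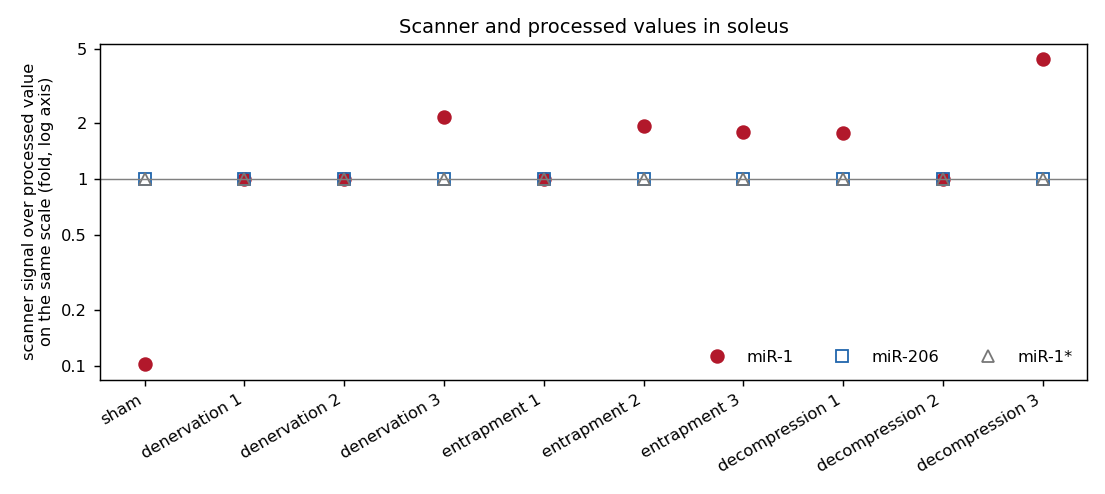
Scanner signal divided by the processed value on the same scale (fold, log axis) for miR-1, miR-206 and miR-1* on each of the 10 soleus arrays, with the grey line at equal values. miR-206 and miR-1* lie at 1 on every array, while miR-1 lies at 0.102 on sham and between 1.77 and 4.41 on 5 injury arrays.

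After scaling, the scanner level of miR-1 was 12388 on the sham array. It was 71586, 47777 and 285279 after denervation, with a mean of 134881 ± 130792 (SD, n = 3). It was 19738, 34159 and 50455 after entrapment (34784 ± 15368, n = 3) and 39128, 27917 and 43820 after decompression (36955 ± 8171, n = 3). The denervation levels overlapped with those of entrapment on 1 array only, denervation 2, and lay above all 3 decompression levels. Denervation 3 was 5.97-fold above denervation 2, the widest spread of miR-1 within a group.

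The sham level was 121716 when the 6 scanner values that differ gave way to the processed ones. The denervation level was then 83628 ± 43151 (n = 3), with 131521 on denervation 3 above sham and the other 2 arrays below it. The entrapment level was 21814 ± 5493 (n = 3) and the decompression level 19996 ± 9172 (n = 3), and all 6 arrays lay below sham and below all 3 denervation arrays. How many other miRNAs lay so with these values was not counted.

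**Figure D2:**
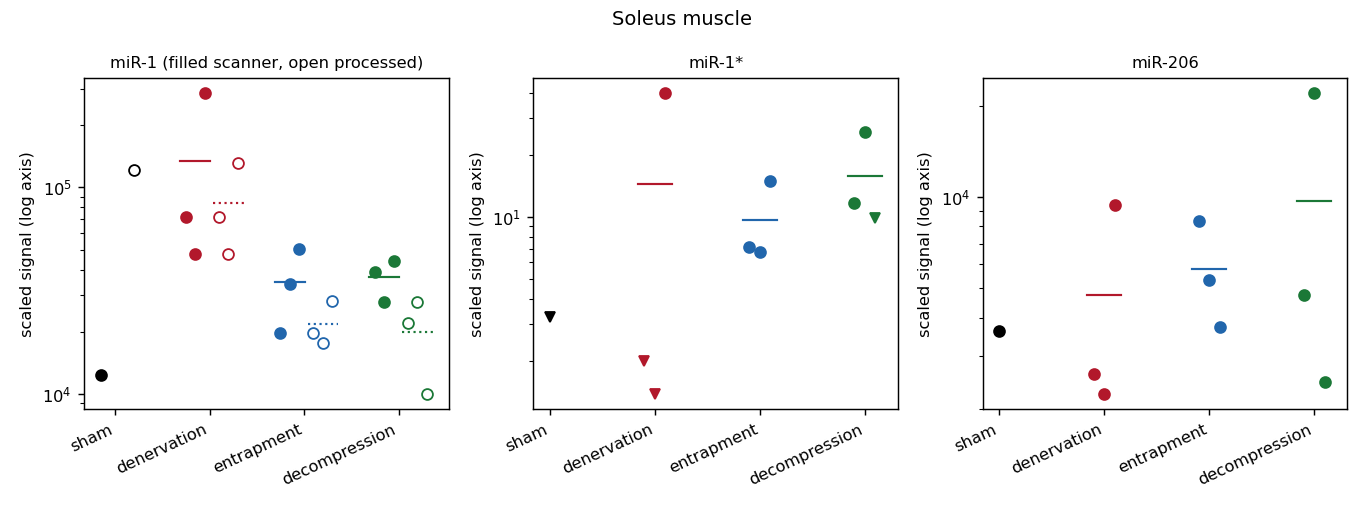
Scaled signal (log axis) of miR-1, miR-1* and miR-206 on each soleus array by group, with lines for group means and triangles for arrays on which the miRNA was not detected. For miR-1, filled points are scanner values (12388 on sham) and open points have the processed values in place (121716 on sham), while miR-206 overlaps between the 3 injury groups.

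In the test across all 173 miRNAs of soleus (limma, Benjamini-Hochberg adjusted p under 0.05), miR-1 by scanner values rose after denervation, by 3.00 on the log2 scale (SE 0.89, 95% interval 0.99 to 5.01, adjusted p = 0.0358, higher on 3 of 3 arrays). It was the 1 of the 3 members called, where 26% of all tested miRNAs were called in either direction and 11% were higher. In whole muscle or ganglia, a change in the share of a cell type and a change in RNA per cell cannot be told apart. miR-1 exceeded sham after entrapment by 1.39 (SE 0.89, 95% interval -0.62 to 3.39, adjusted p = 0.276), on 3 of 3 arrays, and did not pass the test. The decompression group exceeded it by 1.55 (SE 0.89, 95% interval -0.46 to 3.56, adjusted p = 0.230), likewise on 3 of 3 arrays. The call after denervation was lost when the entrapment 2 array (adjusted p = 0.0568) or the decompression 1 array (adjusted p = 0.0517) was left out of the fit, which changed the pooled spread and not the difference of 3.00. No member was called after entrapment, where 29.5% of all tested miRNAs were, or after decompression, where 31.8% were. These 3 comparisons share the sham array.

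The same test on the processed values in place gave miR-1 a difference of -0.67 after denervation (SE 0.68, 95% interval -2.19 to 0.86, adjusted p = 0.520). It gave -2.51 after entrapment (SE 0.68, 95% interval -4.04 to -0.98, adjusted p = 0.0222) and -2.73 after decompression (SE 0.68, 95% interval -4.26 to -1.21, adjusted p = 0.0163). The former did not hold without entrapment 2 (adjusted p = 0.0611), and the latter held with each array left out in turn (adjusted p at most 0.0295). Both groups were lower than sham on 3 of 3 arrays, in comparisons in which 30.6% and 34.7% of all tested miRNAs were called. The call of a rise after denervation and the calls of a fall after entrapment and decompression thus each held in 1 source only. The sham array's own value sets most of this, since its scaled level was 12388 in one source and 121716 in the other.

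The direction followed the source under most scalings. By scanner values the difference of miR-1 from sham stayed above 0 in all 3 comparisons without scaling and under the other 3 scalings shown in the plot by scaling. On the processed values in place it was below 0 after decompression under every one of them, but was above 0 after denervation with quantile scaling (0.72) and without scaling (0.81). With quantile scaling, which gives equal ranks the same value on every array, it was 0 after entrapment. The falls of miR-1 after entrapment and decompression with the processed values in place also depended on the scaling for their call. They were not called without scaling (adjusted p = 0.696 and 0.498) or with quantile scaling (adjusted p = 1 and 0.528), and both were called with median scaling (adjusted p = 0.0337 and 0.0186). With the percentile taken over another set of miRNAs, the fall after entrapment was not called (adjusted p = 0.0608) and that after decompression was (adjusted p = 0.0396).

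**Figure D3:**
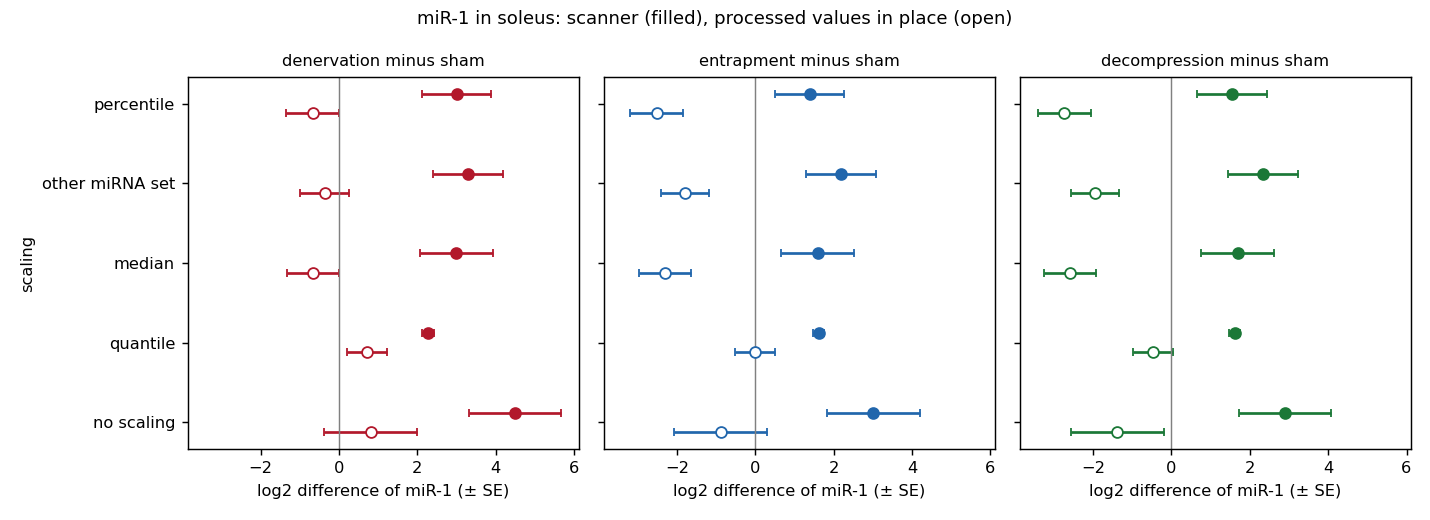
Log2 difference of miR-1 from sham in soleus (x axis, bars are the standard error of the limma fit over 10 arrays) for 5 ways of scaling (y axis, percentile being the one reported), by scanner values (filled) and with the processed values in place (open). Every filled point is above 0, and the open points run from -2.73 to 0.81.

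The injury groups can be compared without the sham array. By scanner values miR-1 was lower after entrapment than after denervation by 1.61 on the log2 scale (a difference of -1.61, SE 0.63, adjusted p = 0.162), and lower after decompression than after denervation (-1.45, SE 0.63, adjusted p = 0.163). Neither passed the test, in comparisons in which 11.6% and 13.9% of all tested miRNAs were called. Both passed with the processed values in place, at -1.84 (SE 0.48, adjusted p = 0.0353) and -2.06 (SE 0.48, adjusted p = 0.0224), where 13.3% and 15% were called. With each array left out in turn, the adjusted p of the first ran from 0.0231 to 0.116 and that of the second from 0.0195 to 0.0576. By scanner values both differences shrank without denervation 3, to -0.85 and -0.69. The direction was the same in both sources. Decompression and entrapment differed by 0.16 (95% interval -1.26 to 1.58) by scanner values and by -0.22 (95% interval -1.30 to 0.86) with the processed values in place, and in this comparison limma called 0% of the tested miRNAs in either source. Over the 9 injury arrays, an exact permutation test across the 3 groups (two-sided, 280 partitions, smallest possible p = 0.00357) gave miR-1 p = 0.0750 by scanner values, which was 0.375 adjusted over 6 such tests. The exact permutation p was 0.0286 with the processed values in place, or 0.0857 adjusted over 3 tests.

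miR-206 was detected on all 10 soleus arrays and passed the test in no comparison. Its scaled level was 3601 on the sham array. It was 2602, 2235 and 9393 after denervation (4744 ± 4030, n = 3). It was 8327, 5329 and 3717 after entrapment (5791 ± 2340, n = 3) and 4748, 21929.5 and 2452 after decompression (9710 ± 10645, n = 3). The 3 injury groups overlapped throughout. All 3 entrapment arrays lay above sham, whereas denervation 1 and 2 and decompression 3 lay below it.

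The difference of miR-206 from sham was 0.08 after denervation (SE 1.16, 95% interval -2.54 to 2.69, adjusted p = 0.960), 0.61 after entrapment (SE 1.16, 95% interval -2.00 to 3.22, adjusted p = 0.725) and 0.82 after decompression (SE 1.16, 95% interval -1.79 to 3.43, adjusted p = 0.619). These intervals hold changes of several-fold in either direction. Between injury groups, miR-206 differed by 0.53 for entrapment minus denervation (adjusted p = 0.773), by 0.74 for decompression minus denervation (adjusted p = 0.541) and by 0.21 for decompression minus entrapment (adjusted p = 1.0). The value after decompression rested on decompression 2, the brightest array for miR-206 with 20268 before scaling, without which the difference from sham was -0.08, and the value after denervation on denervation 3, without which it was -0.58. The exact permutation test across the injury groups gave miR-206 p = 0.754 (n = 3 each).

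miR-1* lay near the detection limit in soleus. Before scaling its signal was 1.29 on sham, 2.75, 3.37 and 15.8 after denervation, 11.98, 10.3 and 10.6 after entrapment and 12.03, 23.8 and 10.7 after decompression. It was detected on 6 of 10 arrays, all 3 of entrapment, decompression 1 and 2, and denervation 3, and not on the sham array. Against the undetected sham array it measured 2.74-fold higher after entrapment and 4.41-fold higher after decompression, with detection on 2 of 3 arrays. No fold is given for denervation, where 1 of 3 arrays detected it. Each fold sets the mean over all 3 arrays of the group against a sham value. That value was the higher of the sham array's own scaled signal and the lowest detected signal, and was its own signal. The folds are therefore measured differences and not lower limits. The error filed with the sham signal was 122% of that signal, so its true level may lie well above or below it. No difference of miR-1* from sham passed the test (limma adjusted p = 0.465 after entrapment, 0.273 after decompression and 0.650 after denervation). Without denervation 3, the array with the highest scaled miR-1*, the test called it higher after decompression than on sham (adjusted p = 0.0308) and than after denervation (2.48, adjusted p = 0.0133), and higher after entrapment than after denervation (1.80, adjusted p = 0.0452).

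A rule of at least 2-fold from sham on each of 3 arrays, in place of the test, called miR-1 higher after denervation by scanner values, as were 15.6% of all tested miRNAs. It called miR-1* higher after entrapment, as were 11% of all, and miR-1 and miR-1* higher after decompression, as were 13.3%. On the processed values in place the rule called miR-1 lower after entrapment and after decompression, as were 27.7% of all in each, and called miR-1 in neither direction after denervation. miR-206 met the rule in no soleus group.

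Because miR-1 and miR-206 were read on the same array, the change of their ratio does not depend on a scaling that uses 1 factor per array. By scanner values the log2 ratio of miR-1 to miR-206, minus that on sham, was 3.00, 2.64 and 3.14 after denervation. It was -0.54, 0.90 and 1.98 after entrapment and 1.26, -1.43 and 2.38 after decompression. The 3 denervation arrays lay above all other arrays, with means of 2.93 ± 0.26 (SD, n = 3) after denervation, 0.78 ± 1.26 (n = 3) after entrapment and 0.73 ± 1.96 (n = 3) after decompression. An exact permutation test across the injury groups gave p = 0.143, adjusted over the soleus and DRG tests to 0.286.

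With the processed values the ratio was below that of sham on all 9 arrays. It was -0.30, -0.66 and -1.27 after denervation, -3.83, -3.35 and -2.16 after entrapment, and -2.86, -4.73 and -3.06 after decompression. The denervation arrays again lay above all 6 others, and the exact permutation test gave p = 0.0250 (adjusted 0.05, n = 3 each). The adjusted value did not fall below 0.05. In both sources, miR-1 relative to miR-206 was therefore highest on the 3 denervation arrays among the injury arrays, whereas its position relative to sham differed between the sources.

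**Figure D4:**
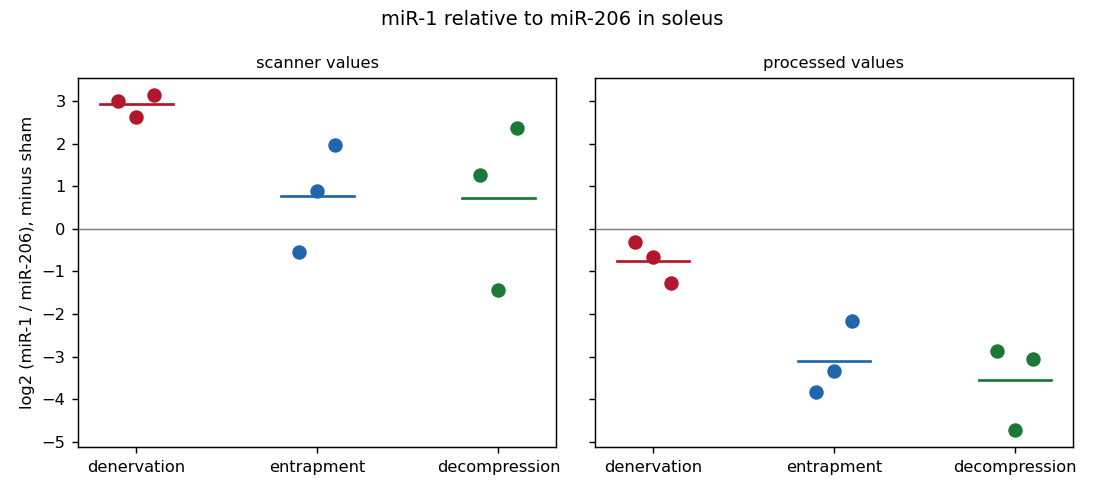
Log2 ratio of miR-1 to miR-206 on each of the 9 soleus injury arrays, minus the ratio on the sham array (grey line at 0), by scanner values (left) and processed values (right), with lines for the group means. The denervation arrays are highest in both panels, from 2.64 to 3.14 on the left and from -1.27 to -0.30 on the right.

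Of 8 other muscle miRNAs listed for comparison, 4 are on the array and 3 could be tested in soleus. They are miR-133a and miR-133b, which are encoded beside miR-1 and miR-206, and miR-499, which is encoded in a myosin gene of slow fibres. miR-208, which is encoded in a cardiac myosin gene, was detected on no array. By scanner values 1 of the 3, miR-133b, was called lower than sham in each of the 3 comparisons and none was called higher. With the processed values in place 1, 2 and 2 of the 3 were called lower after denervation, entrapment and decompression, and miR-499 rose after decompression (6.27, adjusted p = 0.0278). The processed values of miR-499 were 10 times the scanner signal on all 6 entrapment and decompression arrays and 0.1 times it on denervation 3, so its rise holds in 1 source only. The median over the 3 by scanner values was -0.26 after denervation, -1.91 after entrapment and -1.57 after decompression, where the medians over all 173 miRNAs were -0.07, -0.37 and -0.29.

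miR-133b, the neighbour of miR-206, stood at a scaled signal of 174552 on sham. It was 45359 ± 14155 after denervation (n = 3, adjusted p = 0.0167 in limma), 41537 ± 15643 after entrapment (n = 3, adjusted p = 0.0119) and 52030 ± 3912 after decompression (n = 3, adjusted p = 0.0250), lower than sham on 9 of 9 arrays. Its fall on the log2 scale was from 1.75 to 2.14, while miR-206 from the same chromosomal neighbourhood changed by 0.08 to 0.82 without passing the test. These falls are those after scaling. Before scaling miR-133b stood at 68973 on sham, at 83144 and 106270 on denervation 1 and 2, and at 60292 or less on the other injury arrays.

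miR-133a, the neighbour of miR-1, differed from sham by -0.26, -1.91 and -1.57 in the denervation, entrapment and decompression groups by scanner values, and did not pass the test (adjusted p = 0.843, 0.116 and 0.199). The processed table differs from the scanner files for miR-133a too, on denervation 3 alone (2092 against a scanner signal of 5883). With the processed values in place its difference after denervation was -0.76 and was not called (adjusted p = 0.303). Those after entrapment and decompression stayed at -1.91 and -1.57, but both then passed the test (adjusted p = 0.0208 and 0.0404). Their SE was 0.51 in place of 0.84. In these 2 groups miR-133a was thus equally low in both sources, whereas the direction of miR-1 changed with the source. The sham array gave no detected signal of miR-499, in contrast to all 9 injury arrays, and its scanner differences from sham, led by 4.69 after denervation (adjusted p = 0.117), did not pass the test.

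Across the 10 soleus arrays, the miRNAs whose log2 scaled signal followed that of a member most closely were listed as a description. The arrays share the sham array, the scaling and any common handling. miR-1 by scanner values went most closely with miR-672 (r = 0.93), miR-30d* (r = 0.86) and miR-207 (r = 0.76), and with the processed values in place with miR-145 (r = 0.93), miR-500 (r = 0.92) and miR-30c-1* (r = 0.90), so no miRNA was in both lists. Its correlation with miR-133a was 0.60 in the first case and 0.83 in the second. miR-206 went most closely with miR-24-2* (r = 0.90), miR-497 (r = 0.88) and miR-27a (r = 0.85). miR-1* went most closely with miR-298 (r = 0.99), let-7b* (r = 0.99) and miR-296* (r = 0.82), which like it were detected on only some of the arrays. miR-1 and miR-206 did not follow each other (r = 0.01).

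In the DRGs, which hold sensory neurons and their glia, miR-1 was detected on 10 of 10 arrays and miR-206 on 9 of 10, both at low signal. The scaled signal of miR-1 was 66.6 on sham and 52.0, 55.8 and 52.2 after denervation (53.3 ± 2.17, n = 3). It was 27.2, 31.7 and 49.1 after entrapment (36.0 ± 11.5, n = 3) and 33.6, 39.4 and 80.7 after decompression (51.2 ± 25.7, n = 3). It lay below sham on 8 of 9 injury arrays, decompression 3 being the exception.

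miR-206 was lower than sham on 9 of 9 injury arrays in the DRGs. Its scaled signal was 42.4 on sham and 24.7, 14.1 and 24.5 after denervation (21.1 ± 6.10, n = 3). It was 21.8, 4.67 and 18.0 after entrapment (14.8 ± 8.99, n = 3), not detected on the second of these arrays, and 11.3, 17.0 and 14.4 after decompression (14.2 ± 2.87, n = 3). The injury groups overlapped.

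No member was called in any comparison of the DRGs. For miR-206 the difference from sham was -1.05 after denervation (SE 0.77, adjusted p = 0.497), -1.79 after entrapment (SE 0.77, 95% interval -3.56 to -0.03, adjusted p = 0.129) and -1.59 after decompression (SE 0.77, 95% interval -3.36 to 0.17, adjusted p = 0.165). Without entrapment 2, the array on which miR-206 was not detected, the fall after decompression passed the test at the same size (adjusted p = 0.0151), and the entrapment group differed from sham by -1.10 and from denervation by -0.045. For miR-1 the difference from sham was -0.32 (SE 0.47, adjusted p = 0.791), -0.93 (SE 0.47, adjusted p = 0.179) and -0.49 (SE 0.47, adjusted p = 0.456) in the same order. Of all 219 tested miRNAs, limma called 0.457% after denervation, 19.6% after entrapment and 18.3% after decompression. By the 2-fold rule miR-206 was lower after decompression, as were 13.7% of all tested miRNAs, and no other member was called in any DRG group.

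Between the injury groups of the DRGs, limma called 41.1% of all tested miRNAs for entrapment minus denervation and 36.5% for decompression minus denervation, again with none of the 3 members. miR-1 differed by -0.61 (adjusted p = 0.184) and -0.17 (adjusted p = 0.697), and miR-206 by -0.74 (adjusted p = 0.320) and -0.54 (adjusted p = 0.447). Decompression minus entrapment was 0.44 for miR-1 and 0.20 for miR-206 (adjusted p = 1.0 for both), where 0% were called. In the DRGs the processed columns named for the 6 entrapment and decompression arrays match the scanner files of the other of these groups. By the names of those columns every entrapment and decompression value in the DRGs, including the 2-fold call of miR-206 after decompression, would pass to the other of these groups and the sign of this last comparison would turn. Which naming is right cannot be told from the files. The exact permutation tests across the 3 groups gave p = 0.293 for miR-1, p = 0.561 for miR-206 and p = 0.125 for miR-1* (n = 3 each).

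**Figure D5:**
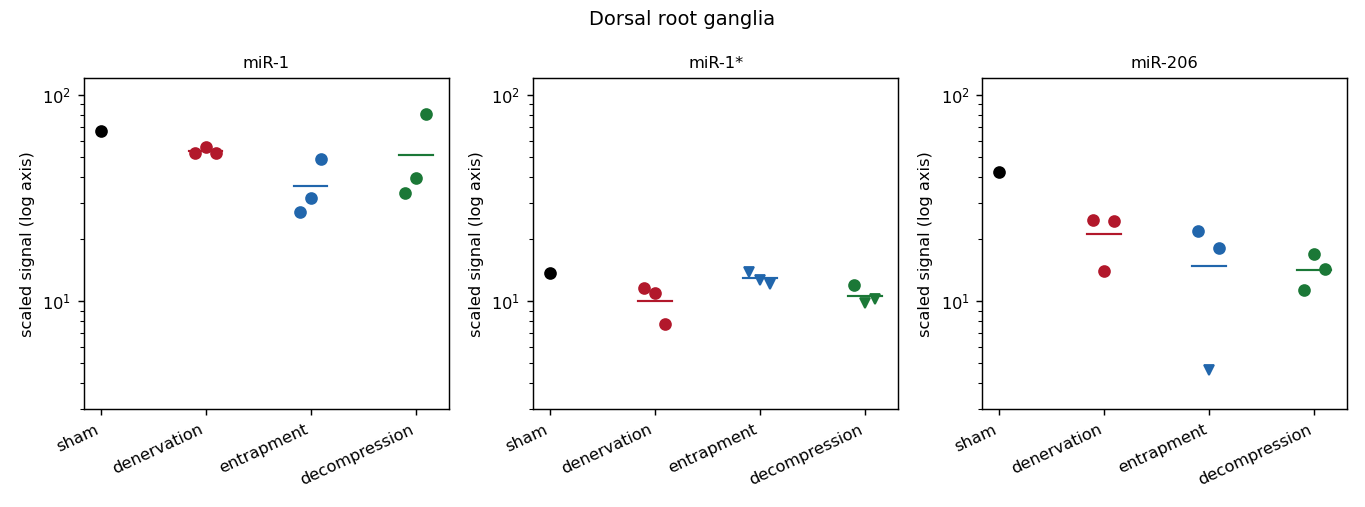
Scaled signal (log axis) of miR-1, miR-1* and miR-206 on each DRG array by group, with lines for group means and triangles for arrays on which the miRNA was not detected. All 9 injury arrays lie below sham (42.4) for miR-206, 8 of 9 lie below sham (66.6) for miR-1, and miR-1* stays between 7.75 and 13.9.

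miR-1* was detected on 5 of 10 DRG arrays, on sham, the 3 denervation arrays and decompression 1, with signals before scaling between 8.78 and 15.6 over all arrays. Its differences from sham were -0.47, -0.10 and -0.37 in the denervation, entrapment and decompression groups (adjusted p = 0.313, 0.783 and 0.261). Its scaled signal was 7.75 to 11.6 on the denervation arrays and 12.2 to 13.9 on the entrapment arrays, which did not detect it. Between these groups limma called 41.1% of all tested miRNAs, and miR-1* was not among them. The order of these groups followed the scaling, since without scaling entrapment minus denervation was -0.07 in place of 0.37 (adjusted p = 0.0946 as reported).

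The miRNAs that went most closely with the members over the 10 DRG arrays were miR-30d (r = 0.82), miR-182 (r = 0.81) and miR-152 (r = 0.78) for miR-1. For miR-206 they were miR-539 (r = 0.98), miR-672 (r = 0.96) and miR-207 (r = 0.94), and for miR-1* miR-296* (r = 0.86), miR-483 (r = 0.74) and miR-138 (r = 0.67). miR-182 is a miRNA of sensory neurons. Of the other muscle miRNAs in the DRGs, 3 of 4 could be tested. miR-133a fell after entrapment against sham (-0.88, adjusted p = 0.0204), and neither miR-133b nor miR-499 passed the test against sham. Against denervation, miR-133a fell after entrapment (-0.61, adjusted p = 0.0144), and miR-133b rose, by 0.49 after entrapment (adjusted p = 0.0244) and by 0.72 after decompression (adjusted p = 0.00409).

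Between the tissues, all 20 arrays were put on a common scale and soleus was set against the DRGs. miR-1 was 541-fold higher in soleus (log2 difference 9.08, SE 0.33, adjusted p = 1.05e-12 in limma), the largest difference toward soleus among 234 tested miRNAs. miR-206 was 183-fold higher (log2 difference 7.51, SE 0.47, adjusted p = 7.38e-10), rank 4 of the 234 in the order from highest in soleus to highest in the DRGs. miR-133b (7.93) and miR-133a (7.80) stood between them in that order. The tissues differed in most miRNAs, since 81.2% of those tested were called and 18.8% were higher in soleus. Tissue and the handling of its arrays cannot be told apart.

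The levels of both miRNAs were far apart on every array. On the common scale miR-1 ran from 11150 to 251165 with a median of 36136 over the soleus arrays and from 34.0 to 94.6 with a median of 54.8 over the DRG arrays, so that the lowest soleus array was 118-fold above the highest DRG array. miR-206 ran from 1975 to 18811 with a median of 3702 in soleus and from 5.25 to 46.8 with a median of 20.6 in the DRGs, and the lowest soleus array was 42.2-fold above the highest DRG array. With the processed values in place the miR-1 difference was 9.41 (adjusted p = 4.16e-14). The tissue difference thus did not depend on the source that decided the direction of the injury comparisons.

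miR-1* did not follow miR-1 between the tissues. Its difference was -1.08 (SE 0.47, adjusted p = 0.0477), lower in soleus, with 6 soleus and 5 DRG arrays on which it was detected, and with quantile scaling the sign turned to 0.93. The call was lost under 19 of 24 alternatives, most of them the leaving out of 1 array, and the difference ran from -1.40 without soleus denervation 3 to -0.92 without denervation 1 (adjusted p up to 0.0749 with 1 array left out). miR-499 differed by -0.45 between the tissues (adjusted p = 0.557). Whether a change from sham differed between the tissues was tested for each member, and miR-1 after denervation was the 1 call (3.32, adjusted p = 0.0378, by scanner values, and -0.34, adjusted p = 0.804, with the processed values in place), where 23.5% of all tested miRNAs were called.

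The tissues were checked by marker miRNAs beside these levels. On the common scale the summed signal of 5 muscle miRNAs, miR-1 and miR-206 among them, ran from 48285 to 301141 in soleus and from 263 to 471 in the DRGs. By group in soleus, this sum was 177076 on sham and 84829 to 301141 after denervation. It was 48285 to 99078 after entrapment and 85162 to 88674 after decompression, below sham on every array of both groups. These sums hold the scanner values of miR-1. Of 5 miRNAs of neurons and sensory ganglia (miR-124, miR-9, miR-183, miR-182 and miR-96), all were detected on every DRG array. None was detected on the soleus sham array, and none on all arrays of any soleus group. The muscle sum was 361 on the DRG sham array, within the range of the DRG injury arrays. Its part in the DRG signals of miR-1 and miR-206 was not tested. In soleus, the summed signal on the same scale of 2 endothelial miRNAs, miR-126 and miR-126*, was 325.5 on sham, where miR-126* was not detected, and ran from 895 to 1465 on the injury arrays. In the DRGs, that of 2 miRNAs of glia, miR-338 and miR-219-5p, was 8943 on sham and ran from 11692 to 14276 after injury. Both sums thus moved with injury against sham. The same endothelial sum in the DRGs (695 on sham) ran from 623 to 751 after injury, and the glial sum in soleus (92.3 on sham) from 44.3 to 174. The sum of 2 miRNAs of red blood cells ran from 168 to 1995 after injury in soleus (1061 on sham). In the DRGs it ran from 807 to 5351 (3363 on sham) and was at most 1641 after denervation. The part of all these sums in the differences from sham was not tested.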

How the data were processed

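The scanner files that the authors deposited give a total gene signal per miRNA and array, an intensity that Agilent Feature Extraction 9.5.3 (per the submitters' processing notes) summed over probes after background subtraction and did not normalize between arrays, with its error and a detection call. The authors also deposited a processed signal per miRNA and array. No slide or scan batch could be read from the files, so none was tested. The labels describe amplification with Cy3-CTP, the methods ligation of pCp-Cy3.

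Intensities were scaled to each array's 75th percentile taken over 108 miRNAs with detection on every soleus array, over all 348 in the DRGs, and over 102 for both tissues together. The percentiles were centred on their geometric mean. Signals under the detection floor (2.57 in soleus, 2.31 in the DRGs) were set to it before log2. miRNAs detected on at least 3 of a tissue's 10 arrays were tested, all members among them. limma 3.58.1 in R 4.3.3 (lmFit, then eBayes, by group, with 6 residual degrees of freedom) took in the 10 arrays of each tissue, with two-sided p-values adjusted by Benjamini-Hochberg over all tested miRNAs at 0.05. The fit takes the sham array, 1 per tissue, to spread as the injury groups do. Permutation tests were exact, over the F statistic of the 3 injury groups. The scripts were tested on simulated data. The number of arrays limits the precision.

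The members and lists were chosen with earlier results of these data known. Named besides the members were the listed muscle miRNAs, marker miRNAs, and the 3 miRNAs that correlated best with each member per tissue. Figures were drawn with matplotlib 3.10.9. The closing section gives the alternatives tried. Using processed values in place of differing scanner values, and leaving out both denervation arrays whose files share the sham file's layout, were chosen after seeing the data.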

Additional observations from a re-analysis of the deposited data

Results flagged for a closer look

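The change of miR-1 after denervation differed between the tissues by scanner values. Its log2 difference from sham was greater in soleus than in the DRGs by 3.32 (SE 1.09, interaction term of limma over 20 arrays, adjusted p = 0.0378, higher than sham on 3 of 3 soleus arrays and lower on 3 of 3 DRG arrays), where 23.5% of all 234 tested miRNAs were called. With the processed values in place of the soleus scanner values that differ, the same term was -0.34 (SE 0.87, adjusted p = 0.804). The term rests on 1 sham array in each tissue, and the fit took no account of rats that may have given both tissues.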

How the results depend on the processing

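Over 53 results, 990 values were recomputed under alternatives, of which 822 kept their direction and side of the threshold, 97 reversed, 27 lost and 38 gained a call and 6 counts moved. The soleus minus DRG differences of miR-1 and miR-206 kept direction and call under every alternative, between 8.89 and 9.88 for miR-1 and between 7.29 and 8.31 for miR-206. Values are log2 differences, and the cause of a change was not tested.

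The rise of miR-1 after denervation in soleus remained 3.00 but was not called without a filter (adjusted p = 0.113) or with only both groups in the fit (adjusted p = 0.164). With the processed table as deposited, miR-1 stood at 1.27 after denervation, -0.32 after entrapment and -2.01 after decompression against sham, and at -1.69 for decompression minus entrapment. The values in that table carry each array's divisor, which was 1222 on decompression 2 and 38.7 to 100 on the other soleus arrays. That table gave miR-1* -0.50 and miR-206 -1.26 for decompression minus entrapment in soleus, and miR-206 -0.48 for decompression minus denervation. In the DRGs it gave -0.43, 0.29 and -0.19 for decompression minus entrapment of miR-1, miR-1* and miR-206. That table's columns for both DRG groups match the scanner files of the other group, so this sign turned with the naming. Its miR-1* tissue difference was -0.56 and was not called, and its miR-1 over miR-206 ratio gave an unadjusted exact permutation p of 0.0250 in soleus.

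With processed values in place of the scanner values that differ, miR-1 against sham was -0.67, -2.51 and -2.73 after denervation, entrapment and decompression, with -1.84 and -2.06 for entrapment and decompression minus denervation and -0.22 for decompression minus entrapment. Adding median scaling gave -0.67, -2.30 and -2.59 against sham, with -1.92 for decompression minus denervation and -0.30 for decompression minus entrapment. No scaling gave 0.81, -0.88 and -1.38, with -0.50 for the last. The other miRNA set for the percentile gave -0.37, -1.79 and -1.95, with -1.58 for decompression minus denervation and -0.16 for decompression minus entrapment. Quantile scaling gave 0.72 after denervation, 0 after entrapment, -0.47 after decompression and -0.47 for decompression minus entrapment. The falls after entrapment and decompression were not called without scaling or with quantile scaling, and the first was not called with the other miRNA set.

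By scanner values, quantile scaling called miR-1 in soleus at 1.62 after entrapment and 1.62 after decompression against sham and at -0.66 and -0.66 against denervation. That scaling gives equal ranks equal values, so these are steps between ranks. Their SE (0.14 against sham) does not measure the spread of the signals. Quantile scaling gave miR-206 -0.013 for decompression minus entrapment. No scaling gave -0.11 for miR-1 and -0.067 for miR-206 in that comparison. Rank-consistent loess called miR-1* at 2.87 after entrapment and 3.57 after decompression. In the DRGs, quantile scaling gave miR-1 0.021 for decompression minus denervation and miR-1* 0.77 and 0.51 against sham after entrapment and decompression, and called miR-1* at 1.08 and 0.82 against denervation. Median scaling gave miR-1 0.36 for decompression minus sham, 0.029 for entrapment minus denervation and 0.48 for decompression minus denervation, and miR-206 0.11 for the last. It gave miR-1* 0.75 (called) and 0.48 against sham and called it at 1.02 and 0.75 against denervation. Loess gave miR-1* 0.36 and 0.038 against sham and called it at 0.73 and 0.41 against denervation. No scaling called miR-1 at -1.06 for entrapment minus denervation and gave miR-1* -0.069 and -0.34 for entrapment and decompression minus denervation. The miR-1* tissue difference was 0.93 with quantile scaling, and -0.33 with the other miRNA set and -0.81 with a pseudocount, both not called.

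Same-numbered arrays of a tissue deviated together (correlation over 0.1) in 1 of 9 pairs in soleus and 4 of 9 in the DRGs. Differently numbered arrays did so in 6 of 18 pairs in each tissue. In the DRGs the correlations ran from -0.12 to 0.48 for same-numbered pairs and from -0.50 to 0.32 for the others. Whether the replicate numbers pair the DRG arrays cannot be told from these values. With the replicate block, miR-1 after denervation was 2.64 in soleus and not called (adjusted p = 0.0526), miR-206 there was -0.044, miR-1* in the DRGs was 0.071 after entrapment and was called at 0.37 for entrapment minus denervation, and the miR-1* tissue difference of -1.08 was not called. The block took the calls over all soleus miRNAs from 45 to 24, 51 to 27 and 55 to 27 against sham after denervation, entrapment and decompression.

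Leaving out each array in turn gave miR-1 in soleus 2.24 to 3.53 after denervation, 1.07 to 1.74 after entrapment and 1.42 to 1.74 after decompression by scanner values, and with processed values in place -1.06 to -0.33, -2.70 to -2.37 and -3.04 to -2.29. Over both sources it ran from -2.18 to -0.85 for entrapment minus denervation, -2.41 to -0.69 for decompression minus denervation and -0.53 to 0.48 for decompression minus entrapment. miR-206 in soleus ran from -0.58 to 0.46 after denervation, -0.078 to 1.503 after decompression, -0.15 to 1.43 for decompression minus denervation and -0.68 to 0.90 for decompression minus entrapment. miR-1* in soleus ran from -0.34 to 1.63 after denervation, 1.72 to 2.41 after decompression, -0.18 to 1.80 for entrapment minus denervation and 0.51 to 2.48 for decompression minus denervation, and from -1.40 to -0.92 between the tissues, where the call was lost in most of these. In the DRGs, miR-206 ran from -1.73 to -1.44 for decompression minus sham and -0.50 to 0.61 for decompression minus entrapment, miR-1 from -0.55 to 0.080 and miR-1* from -0.083 to 0.21 for decompression minus denervation. Without both denervation arrays whose files share the sham file's layout, chosen after seeing the data, miR-1 was called at -3.14 and -2.97 for entrapment and decompression minus denervation, miR-1* at 3.60 for denervation minus sham, and the differences of entrapment and decompression from denervation were -2.15 and -1.46 for miR-1* and -0.78 and -0.57 for miR-206.

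A 1.5-fold rule, or the mean of the arrays in place of each array, called 2 members in soleus after entrapment in place of 1, and in the DRGs 1 member after denervation and 1 after entrapment in place of 0. Over all alternatives the number of miRNAs called in soleus ran from 0 to 55 after denervation (45 as reported), 1 to 70 after entrapment (51) and 1 to 74 after decompression (55), and in the DRGs from 1 to 16 (1), 19 to 141 (43) and 18 to 148 (40). It ran from 0 to 38 (20) and 0 to 44 (24) for entrapment and decompression minus denervation in soleus, from 60 to 150 (90) and 53 to 154 (80) in the DRGs, from 123 to 202 (190) between the tissues and from 1 to 70 (55) for the tissue term of denervation. The single sham array limits every difference from sham, and signals near the floor limit miR-1* in both tissues and miR-206 in the DRGs.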
